A study of Mus musculus with 6 samples.

Results

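The genes described here drive cell proliferation: 25 act in mitosis and 19 in the start and conduct of DNA replication. These 44 genes were chosen by name from 23284 gene names in RNA-seq tables of cells sorted from the mouse skull vault, and all 44 were found. The libraries came from CX3CR1-EGFP mice, whose EGFP+ calvarial cells were taken with a cell sorter. In these mice a green fluorescent protein reports activity of the fractalkine receptor gene, used by monocytes and by precursors of bone-resorbing osteoclasts. All mice had received lipopolysaccharide (LPS), a component of the bacterial outer membrane, at the calvarial periosteum. With it, 1 group received 10 mg/kg CTLA4-Ig (abatacept), a fusion of the outer part of CTLA-4 with an antibody Fc part that binds CD80 and CD86. The control group received 10 mg/kg whole human IgG. The sort followed after 5 days, and each group has 3 libraries, which the titles call biological replicates. The labels give no age, sex or zygosity of the reporter allele, there was no group without LPS, and no label says how many animals gave each library, so p-values measure the spread between these libraries. The 2 groups are called the drug group and the controls.

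Proliferating cells copy their DNA in S phase and divide it in mitosis. E2F transcription factors, of which E2F1 is one, switch on the replication genes at the border of G1 and S phase. Mitotic genes follow later, through the DREAM and B-MYB-FOXM1 complexes that bind the cell cycle homology region (CHR) and through NF-Y, which binds CCAAT boxes. In bone marrow, committed myeloid and erythroid precursors divide, whereas mature neutrophils and most monocytes do not.

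The promoters of both sets were read from RefSeq (assembly GRCm38.p6) to see which of these elements their letters hold, since the choice of genes did not use sequence. Windows ran from 250 bases before to 50 bases after the start site and were found for 37 of the 44 genes. Ccna2, Aurkb, Kif20a, Tpx2, Ccne2, Mcm4 and Gins2 were not matched. The searched letters were TTTGAA for the CHR, CCAAT for the CCAAT box, GGGCGG for the Sp1 box, and TTTCCCGC, TTTCGCGC, TTTGCCGC or TTTGGCGC for the E2F site, each on both strands.

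The CHR was present in 15 of 21 mitotic genes (71.4%), in 2 of 16 replication genes (12.5%), and in 14.4% of the 7835 tested genes with a promoter window. The CCAAT box was common in both sets, in 18 of 21 mitotic genes (85.7%) and 10 of 16 replication genes (62.5%) against 43.7% of the tested genes. Both elements were present in 15 mitotic genes (71.4%), in 2 replication genes (12.5%) and in 7.19% of the tested genes. The E2F site was present in 7 of 16 replication genes (43.8%), in 1 of 21 mitotic genes (4.76%), and in 4.99% of the tested genes. Over all 27025 genes with a window, 20.2% held the CHR and 2.60% the E2F site. The Sp1 box did not separate the sets in this way, at 85.7% of mitotic and 81.2% of replication genes against 69.2% of the tested genes. These are matches of letters, not shown to be bound in these cells. RefSeq and the GENCODE M21 annotation start some genes at different bases. In E2f1, Cdc6, Cdca8, Mad2l1, Mcm5 and Mcm7 no RefSeq window reaches the GENCODE start. Of these genes Cdca8 is counted with a CHR, and Cdc6, Mcm5 and Mcm7 with an E2F site.

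The 200 bases before the start site are shown for 4 mitotic genes with a CHR, where CHR, CCAAT and E2F matches on either strand are in capitals. Reverse-strand matches read TTCAAA for the CHR and ATTGG for the CCAAT box. Cdk1 lies at chr10:69352913-69353112 (minus strand), Mki67 at chr7:135716380-135716579 (minus), Top2a at chr11:99024190-99024389 (minus) and Ube2c at chr2:164769729-164769928 (plus).
Cdk1: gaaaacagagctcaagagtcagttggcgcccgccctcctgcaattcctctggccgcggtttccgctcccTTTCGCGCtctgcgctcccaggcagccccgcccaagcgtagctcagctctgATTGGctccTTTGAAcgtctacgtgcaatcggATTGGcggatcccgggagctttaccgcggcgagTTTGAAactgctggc
Mki67: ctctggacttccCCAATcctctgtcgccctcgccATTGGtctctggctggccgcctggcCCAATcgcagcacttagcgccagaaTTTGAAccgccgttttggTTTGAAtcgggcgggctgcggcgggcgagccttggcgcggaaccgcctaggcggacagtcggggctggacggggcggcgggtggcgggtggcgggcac
Top2a: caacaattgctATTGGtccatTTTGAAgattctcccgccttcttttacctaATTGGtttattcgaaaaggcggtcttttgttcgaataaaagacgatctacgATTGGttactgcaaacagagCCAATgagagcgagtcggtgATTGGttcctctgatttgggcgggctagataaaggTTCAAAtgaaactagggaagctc
Ube2c: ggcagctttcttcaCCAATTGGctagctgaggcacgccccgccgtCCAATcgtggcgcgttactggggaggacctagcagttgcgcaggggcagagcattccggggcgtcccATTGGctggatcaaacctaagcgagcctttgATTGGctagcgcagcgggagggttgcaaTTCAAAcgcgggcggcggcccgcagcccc
Positions are those of a match's leftmost printed base, where -1 is the base before the start. Cdk1 held CHR matches at -71 and -15 and was the 1 mitotic gene with an E2F match, at -131. Mki67 held CHR matches at -116 and -98, Top2a at -179 and -23, and Ube2c at -29. The GENCODE M21 annotation starts Ube2c at base 164769898 and Cdk1 at base 69352938, inside the printed stretches. By that annotation the CHR of Ube2c and the CHR of Cdk1 at -15 lie within the gene. In Ube2c a forward and a reverse CCAAT match overlap and form 1 run of capitals.

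For the replication genes, Mcm5 and Mcm6 are shown for their E2F matches and Mcm2 as a helicase gene with a CHR instead. Mcm5 lies at chr8:75109309-75109508 (plus strand), Mcm6 at chr1:128359706-128359905 (minus) and Mcm2 at chr6:88898781-88898980 (minus).
Mcm5: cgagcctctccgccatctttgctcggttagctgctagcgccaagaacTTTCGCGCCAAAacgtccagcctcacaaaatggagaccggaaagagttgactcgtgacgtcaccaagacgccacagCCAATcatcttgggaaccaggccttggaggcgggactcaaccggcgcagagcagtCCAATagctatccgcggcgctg
Mcm6: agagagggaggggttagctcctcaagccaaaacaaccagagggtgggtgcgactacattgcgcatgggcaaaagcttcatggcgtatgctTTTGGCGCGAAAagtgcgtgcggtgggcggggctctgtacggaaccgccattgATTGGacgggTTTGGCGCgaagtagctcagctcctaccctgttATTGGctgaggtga
Mcm2: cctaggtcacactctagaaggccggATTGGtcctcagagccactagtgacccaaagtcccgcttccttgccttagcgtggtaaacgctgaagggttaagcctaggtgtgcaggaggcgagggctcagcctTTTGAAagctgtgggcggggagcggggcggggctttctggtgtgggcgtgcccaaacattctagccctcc
Mcm5 and Mcm6 each held a forward and a reverse E2F match that overlap in 1 run of capitals, from -153 in Mcm5 and from -110 in Mcm6. Mcm6 held another at -47, and the CHR of Mcm2 was at -70.

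**Figure D1:**
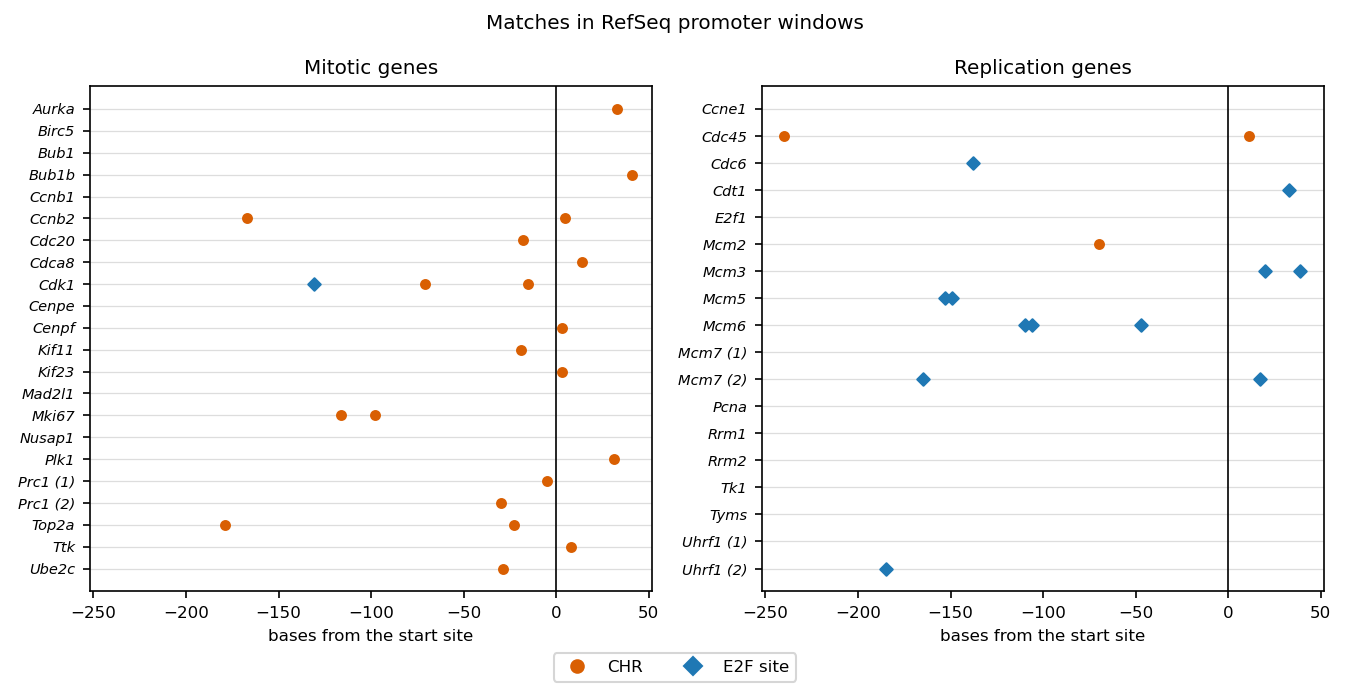
Position of CHR matches (orange circles) and E2F matches (blue diamonds) in the promoter window of each matched gene, in bases from the RefSeq start site (vertical line); genes with 2 windows have 2 rows. Circles occur in 15 of 21 mitotic genes and diamonds in 7 of 16 replication genes.

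Levels are given as FPKM, fragments scaled to transcript length and library size, which allows comparison between genes. The depth, estimated from the spacing of low values, was 8500000 to 10200000 fragments in the drug group and 8480000 to 9300000 in the controls. S100a8 and S100a9, calcium-binding protein genes of neutrophils and monocytes, took 17.1 to 21.9% of all FPKM in the drug group and 14.2 to 15.9% in the controls. A list of 12 late neutrophil markers held mostly granule genes, with S100a8, S100a9 and the transcription factor gene Cebpe among them. Of these 12 markers 11 had the higher mean in the drug group, 10 of them without overlap between the groups (6.50% of all genes did so). None passed the adjusted threshold in limma with Benjamini-Hochberg adjustment, where the smallest adjusted p was 0.720. Their summed level was 173570 to 240021 FPKM against 134064 to 153120, and S100a8 and S100a9 gave the largest parts of it. Markers of promyelocytes, the dividing neutrophil precursors (7 genes), summed to 3196 to 4433 FPKM in the drug group and 3571 to 4637 in the controls. The labelled reporter gene Cx3cr1 stood at 12.3 to 32.5 FPKM over the 6 libraries and the macrophage receptor gene Csf1r at 140 to 193. Monocyte and macrophage markers (11 genes) summed to 3212 to 3428 FPKM in the drug group and 3465 to 3878 in the controls. Of the 11 genes 3 were higher in the drug group, and the groups overlapped in each gene. The largest part of the sum was Ly6c2, with means of 2238 FPKM in the drug group and 2261 in the controls. The highest sum was in control library 1, where Fn1 stood at 782 FPKM. Over the 6 libraries T and NK cell markers summed to 97.7 to 143 FPKM, dendritic cell markers to 134 to 191, B-lineage precursor markers to 13.9 to 25.3 and osteoclast markers to 43.0 to 54.6. Control library 1 stood apart in the sum of 9 erythroid markers, which was 19.1 FPKM there and 114 to 174 in the other 5 libraries. Of these markers Hba-a2, at 0.023 FPKM in all 6 libraries, was not lowest there. In bulk libraries fewer cycling cells and less RNA per cell cannot be told apart.

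All 44 genes were expressed in every library. The mean over the 6 libraries ran from 9.68 FPKM for Ccne2 to 308 FPKM for Pcna, with a median of 61.3, against a median of 14.4 over the 10865 genes tested. Pcna, the sliding clamp of DNA polymerases, was above 97.4% of tested genes and Ube2c, a ubiquitin-conjugating enzyme of the anaphase-promoting complex, above 96.2%. Mki67, the proliferation marker Ki-67, was above 94.6%. At the lower end, Cdc6, Ccne2 and the kinetochore gene Cenpf were at the 43.1, 38.3 and 45.4 percentiles. Together the 44 genes took 0.390 to 0.421% of all FPKM in the drug group and 0.424 to 0.455% in the controls, shares that did not overlap. Their summed levels did overlap, at 1878 to 1942 FPKM against 1825 to 1943 for the mitotic genes and 1366 to 1418 against 1329 to 1404 for the replication genes. The total by which the share is divided ran from 770271 to 851706 FPKM in the drug group and from 726358 to 759683 in the controls, and its part in the shares was not tested.

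**Figure D2:**
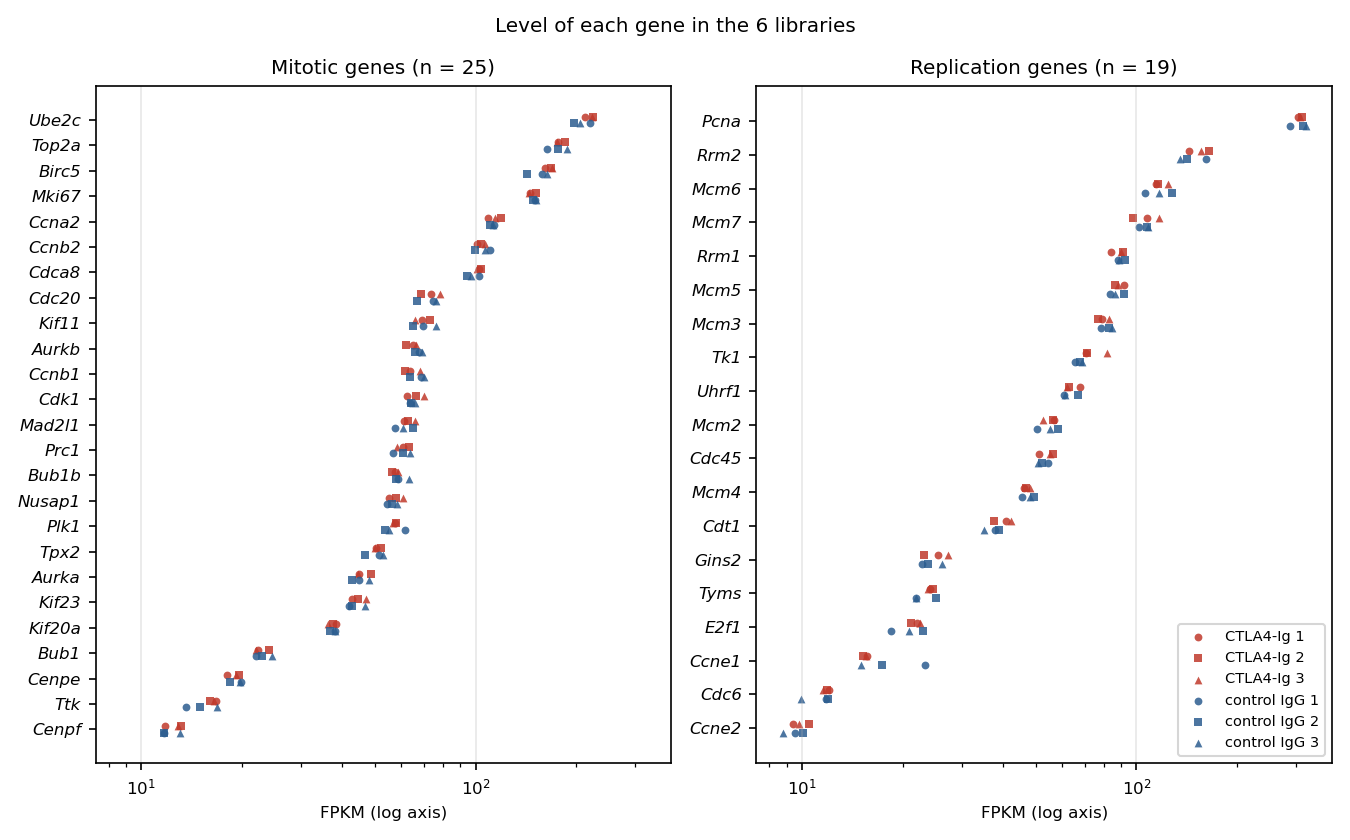
FPKM on a log axis for each of the 25 mitotic and 19 replication genes, with 1 point per library (red, CTLA4-Ig; blue, control IgG; shape, replicate number), ordered by mean. The points of a gene lie close together and the colours are mixed in all genes except Tk1, whose red points are all to the right; Ccne1 has 1 blue circle far to the right.

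Drug and control libraries were then compared for the level of these proliferation transcripts. No member passed the test. In limma on log2(FPKM + 1), 0 of 44 members had a Benjamini-Hochberg adjusted p under 0.05, as did 0 of 10865 genes (0%), and the smallest adjusted p of a member was 0.848. An unadjusted p under 0.05 was reached by 0 members, against 659 genes or 6.07% of all (4.09% higher and 1.98% lower in the drug group). The groups did not overlap in 1 member, Tk1, which was higher in the drug group, and in 0 members that were lower, against 6.50% and 5.69% of all genes.

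Differences ran from -0.22 to 0.15 on the log2 scale, with a median of 0.02 over the 25 mitotic genes and 0.02 over the 19 replication genes, against -0.01 over all genes. A positive difference was found in 16 mitotic and 15 replication genes, 70.5% of the members, against 47.7% of all genes. The sign of the medians rested on single libraries: the mitotic median was -0.012 without control library 2 and -0.0028 without CTLA4-Ig library 2, and the replication median was -0.0021 without control library 1. Quantile normalization gave a mitotic median of 0.0038. The 95% interval of the difference lay within 0.5 of 0 on the log2 scale in 43 members (97.7%), against 81.0% of all genes and 89.2% of the 6416 genes with a mean level in the members' range. Ccne1 was the exception, and without control library 1 all 44 intervals lay within that bound. The intervals are per gene and are not adjusted for the number of genes. The 6416 genes had a median level of 26.0 FPKM against 61.3 for the members, so they are not matched in level.

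**Figure D3:**
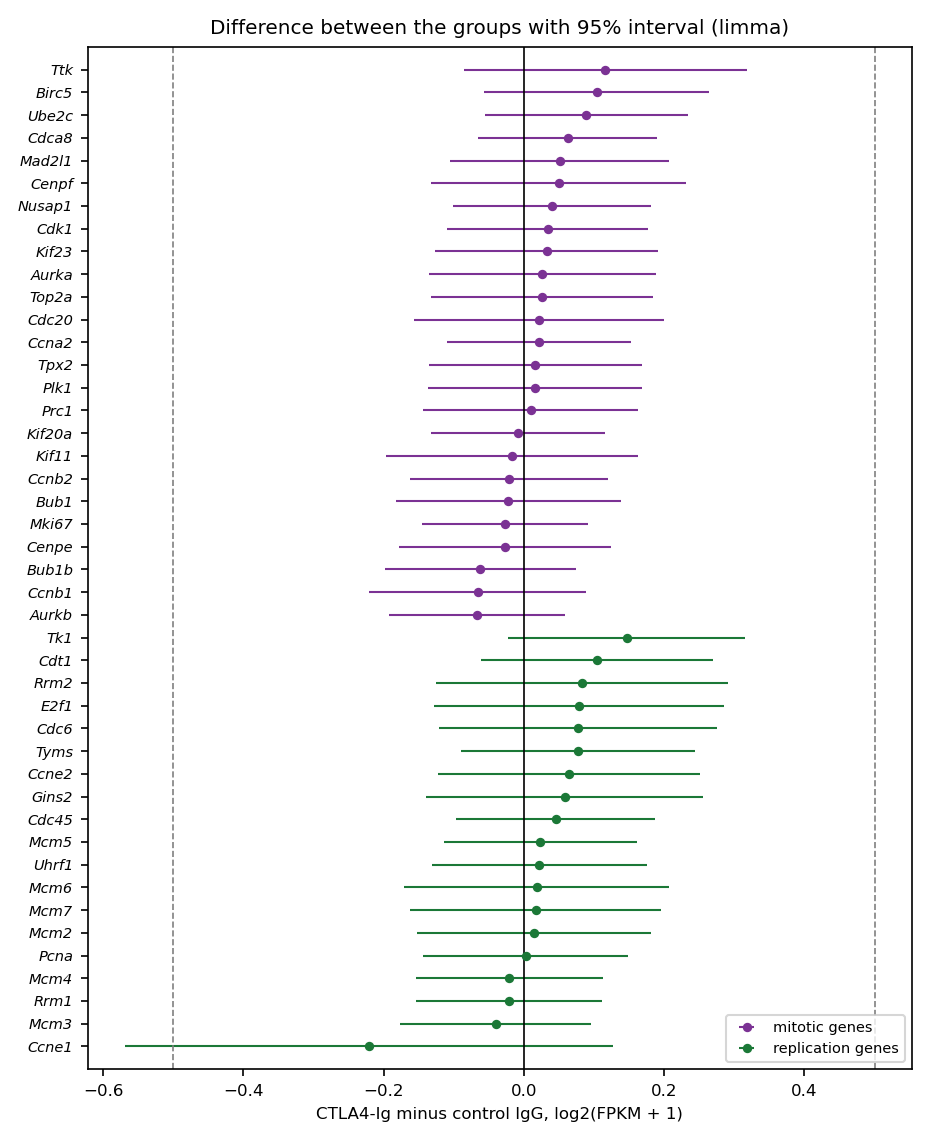
CTLA4-Ig minus control IgG on the log2(FPKM + 1) scale for each gene, with the 95% interval from limma (purple, mitotic; green, replication); dashed lines mark 0.5 on either side of 0. Every interval crosses 0, and the interval of Ccne1 alone crosses a dashed line.

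Among the regulators of S phase entry, E2f1 (chromosome 2, 154559407 to 154569892, GRCm38) stood at 22.0, 21.2 and 22.6 FPKM in the drug group and at 18.5, 23.1 and 20.9 in the controls. The drug group lay inside the control range, and the log2 difference was 0.08 ± 0.09 (SE). Ccne1, cyclin E1, which activates CDK2 for S phase entry (chromosome 7, 38097984 to 38107534), stood at 15.7, 15.3 and 15.5 FPKM against 23.3, 17.3 and 14.99. Control library 1 was the highest, and the other 5 lay between 14.99 and 17.3. The log2 difference of Ccne1 was -0.22 ± 0.15 (SE), with a 95% interval of -0.57 to 0.13 and an adjusted p of 0.890 in limma. It was -0.05 without control library 1 and -0.35 without control library 3. Ccne2, the partner cyclin E2, ran from 8.76 to 10.5 FPKM with no such high value in control library 1, at 9.54. The ratio of Ccne1 to Ccne2 was 2.44 in that library and 1.45 to 1.72 in the others. Erythroid markers were low in the same library. Other markers were highest there, with Flt3, a receptor of early progenitors and dendritic cells, at 46.6 FPKM against 15.8 to 24.2 in the other 5. Fn1, fibronectin, stood at 782 against 311 to 412 FPKM, and Mmp8, a neutrophil collagenase, at 553 against 138 to 321. These 3 markers were chosen after their values were seen, and the part of any marker in the Ccne1 value was not tested.

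Replication origins are licensed when CDC6 and CDT1 load the MCM2 to MCM7 helicase. Cdc6 (chromosome 11, 98907801 to 98923940) stood at 12.0, 11.9 and 11.6 FPKM in the drug group and at 11.8, 11.9 and 9.93 in the controls, so that 1 control library was lower than the rest, and the log2 difference was 0.08 ± 0.08 (SE). Cdt1 (chromosome 8, 122568015 to 122573554) stood at 40.7, 37.4 and 42.3 against 37.7, 38.9 and 35.1 FPKM, overlapping groups with a log2 difference of 0.10 ± 0.07 (SE). The 6 helicase genes had log2 differences from -0.04 (Mcm3) to 0.02 (Mcm5). Mcm2 (chromosome 6, 88883474 to 88898780) stood at 56.6, 56.3 and 52.5 against 50.4, 58.2 and 55.3 FPKM, and Mcm5 (chromosome 8, 75109569 to 75128439) at 91.5, 86.4 and 88.3 against 83.6, 91.9 and 86.5. In both genes the control range enclosed the drug group, and the log2 differences were 0.01 ± 0.07 and 0.02 ± 0.06 (SE). Mcm6 (chromosome 1, 128331590 to 128359664) stood at 115, 116 and 124 against 106, 128 and 117 FPKM, again inside the control range, with 0.02 ± 0.08 (SE). The log2 differences of Mcm4 and Mcm7 were -0.02 and 0.02. The subunits, which form a ring with 1 copy of each, differed in transcript level by 2.48-fold, from 47.3 FPKM for Mcm4 to 118 for Mcm6. This ratio was 2.33 to 2.58 in the single libraries. Cdc45 and Gins2, which join the helicase when an origin fires, had log2 differences of 0.05 and 0.06.

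At the fork and in nucleotide supply, Pcna (chromosome 2, 132249162 to 132253314) stood at 305, 312 and 308 FPKM in the drug group and at 288, 315 and 321 in the controls. The means were 308 ± 3.48 and 308 ± 17.5 (SD, n = 3), a log2 difference of 0.00 ± 0.06 (SE). Rrm2, the S phase subunit of ribonucleotide reductase (chromosome 12, 24708241 to 24714146), stood at 143, 165 and 156 against 162, 142 and 135 FPKM. Its partner Rrm1 had a log2 difference of -0.02 and Rrm2 0.08 ± 0.09 (SE), and Rrm2 was 1.53 to 1.84 times as high as Rrm1 in every library. Tyms, thymidylate synthase (chromosome 5, 30058202 to 30073617), stood at 24.2, 24.7 and 23.8 against 21.9, 25.1 and 21.9 FPKM, with 1 control library above the drug group and a log2 difference of 0.08 ± 0.07 (SE). Uhrf1, which guides DNA methylation at the fork, had a log2 difference of 0.02.

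Tk1, the thymidine kinase of the salvage pathway (chromosome 11, 117815526 to 117826092), was the member with the smallest p. It stood at 70.6, 71.4 and 81.9 FPKM in the drug group and at 65.4, 67.7 and 68.6 in the controls, groups that did not overlap. The means were 74.6 ± 6.32 and 67.2 ± 1.64 FPKM (SD, n = 3). The log2 difference was 0.15 ± 0.07 (SE), with a 95% interval of -0.02 to 0.32 and an adjusted p of 0.848 in limma. Without CTLA4-Ig library 3, the highest, it was 0.08. Tk1 overlaps Afmid on the opposite strand.

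Of the mitotic cyclins and kinases, Cdk1, the kinase that drives entry into mitosis (chromosome 10, 69335146 to 69352938), stood at 62.4, 66.3 and 70.2 FPKM in the drug group and at 63.8, 64.1 and 66.1 in the controls. The drug group spanned the controls, and the log2 difference was 0.03 ± 0.06 (SE). Its cyclin gene Ccnb1 (chromosome 13, 100778650 to 100786570) stood at 63.5, 61.5 and 68.3 against 68.6, 63.8 and 70.1 FPKM, a log2 difference of -0.07 ± 0.07 (SE). Ccnb2, the other B cyclin, was 1.52 to 1.69 times as high as Ccnb1 and had -0.02, and the cyclin A gene Ccna2 had 0.02. Plk1, a kinase of spindle assembly, and Aurka, a kinase of the spindle poles, had 0.02 and 0.03.

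The chromosomal passenger complex corrects attachments of chromosomes to the spindle. None of the 3 genes described here passed the test. Birc5, survivin (chromosome 11, 117849251 to 117855743), stood at 161, 168 and 170 FPKM in the drug group and at 158, 143 and 164 in the controls, overlapping groups with a log2 difference of 0.10 ± 0.07 (SE). Cdca8, borealin (chromosome 4, 124918465 to 124939311), stood at 102, 103 and 101 against 103, 94.4 and 97.0 FPKM, with a log2 difference of 0.06 ± 0.05 (SE). Aurkb, the kinase of the complex (chromosome 11, 69045647 to 69051664), stood at 65.2, 62.1 and 66.4 against 67.8, 66.1 and 69.0, a log2 difference of -0.07 ± 0.05 (SE). No drug value of Aurkb exceeded the middle control value.

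Spindle checkpoint genes hold anaphase until chromosomes are attached. Ttk, the kinase that starts the signal (chromosome 9, 83834689 to 83872389), stood at 16.8, 16.0 and 16.5 FPKM in the drug group and at 13.6, 14.97 and 16.9 in the controls. The control range enclosed the drug group, and the log2 difference of 0.12 ± 0.08 (SE) was the highest of the mitotic set. Bub1b, BUBR1 (chromosome 2, 118598211 to 118641591), stood at 57.3, 56.2 and 58.5 against 58.5, 57.9 and 63.4 FPKM, with -0.06 ± 0.06. Bub1 and Mad2l1 had -0.02 and 0.05. Downstream of the checkpoint, Ube2c (chromosome 2, 164769898 to 164778822) stood at 213, 225 and 223 against 219, 197 and 205 FPKM, and its log2 difference was 0.09 ± 0.06 (SE). Cdc20, the activator of the same complex, had 0.02 ± 0.07.

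Genes of chromosome structure and of the spindle were as flat. Mki67 (chromosome 7, 135689784 to 135716361) stood at 146, 152 and 144 FPKM in the drug group and at 150, 148 and 152 in the controls, and its highest library was 1.05 times its lowest. Its log2 difference was -0.03 ± 0.05 (SE), with a 95% interval of -0.14 to 0.09. Top2a, topoisomerase II alpha, which untangles sister chromatids (chromosome 11, 98992943 to 99024189), stood at 176, 186 and 176 against 164, 177 and 188 FPKM. The control range enclosed the drug group, and the log2 difference was 0.03 ± 0.07 (SE). The mitotic kinesin genes Kif11, Kif20a and Kif23 had log2 differences of -0.02, -0.01 and 0.03, and the kinetochore genes Cenpe and Cenpf -0.03 and 0.05. The spindle genes Nusap1, Tpx2 and Prc1 had 0.04, 0.02 and 0.01.

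Within the groups, too, these genes varied little between libraries. The SD between libraries of a group had a median of 0.071 over the mitotic genes and 0.083 over the replication genes on the log2 scale. It was 0.115 over all genes tested and 0.0986 over the 6416 tested genes with a mean in the members' range. These SD medians were not tested against each other, and the 6416 genes are not matched to the members in level. Their median level was 26.0 FPKM against 61.3 for the members. Mki67 had the lowest value of the members, 0.029, and Ccne1 the highest, 0.218. The highest of the 6 libraries was a median of 1.14 times the lowest over the members and 1.27 times over all genes.

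**Figure D4:**
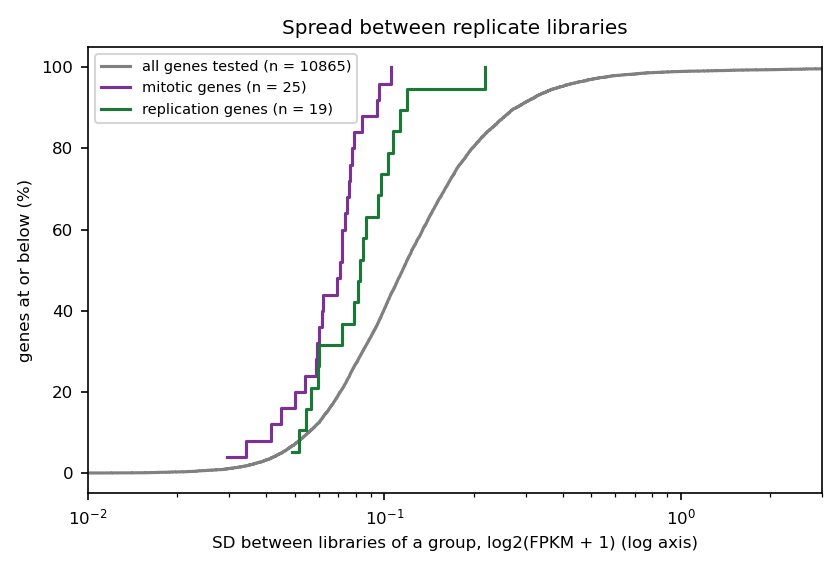
Share of genes (%) at or below a given SD between libraries of a group, on log2(FPKM + 1), for the 25 mitotic genes (purple), the 19 replication genes (green) and all 10865 genes tested (grey); the horizontal axis is logarithmic. The purple and green curves lie to the left of the grey one over most of their range, with medians of 0.071, 0.083 and 0.115.

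Mitotic and replication genes were set against each other inside each library. The mean of log2(FPKM + 1) over the mitotic genes was 5.93, 5.97 and 5.97 in the drug group and 5.94, 5.90 and 5.995 in the controls. Over the replication genes it was 5.69, 5.69 and 5.73 against 5.66, 5.73 and 5.65. The mitotic mean thus exceeded the replication mean in every library, by 0.24, 0.29 and 0.24 in the drug group and by 0.28, 0.17 and 0.35 in the controls. All 3 drug libraries lay between the lowest and the highest control, and the group means were 0.256 ± 0.026 and 0.267 ± 0.088 (SD, n = 3).

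The widest contrast was between 2 control libraries. Control library 2 was the lowest of the 6 in 10 of 25 mitotic genes and the highest in 0, and the highest in 7 of 19 replication genes and the lowest in 0. Control library 3 was the highest in 9 mitotic genes and the lowest in 7 replication genes. Control library 1 was the lowest in 9 replication and 7 mitotic genes. Genes of 1 library share its cells and scaling, so these counts describe the libraries and are not tests.

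**Figure D5:**
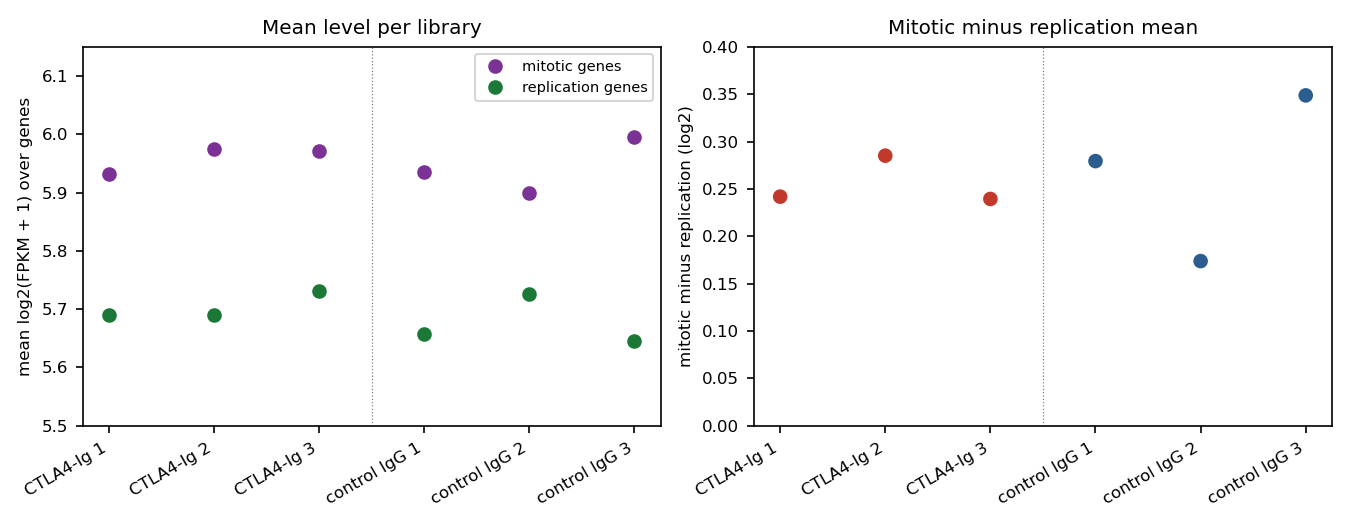
Left, mean log2(FPKM + 1) over the 25 mitotic (purple) and 19 replication (green) genes in each library, on an axis that does not start at 0; right, their difference in each library (red, CTLA4-Ig; blue, control IgG). The drug libraries lie between 0.24 and 0.29, and control libraries 2 and 3 lie at 0.17 and 0.35.

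Wider lists of cell cycle genes were examined in the same fit. Of 40 further mitotic genes 23 had a positive log2 difference, with a median of 0.01, and of 39 further replication genes 17, with a median of -0.02. In limma 0 of either list passed the adjusted threshold, and 0 had an unadjusted p under 0.05. The 4 further mitotic genes with the smallest p were Pbk, a mitotic kinase, with a log2 difference of 0.13, the kinetochore genes Ndc80 with 0.08 and Spc24 with 0.07, and the kinesin gene Kif15 with -0.07. Of the further replication genes, Orc1, the largest subunit of the origin recognition complex, had the smallest p and a log2 difference of -0.23 ± 0.11 (SE). The DNA polymerase gene Pold1 had 0.12, the clamp loader gene Rfc2 0.11 and the histone mRNA binding gene Slbp 0.10.

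The third list held G1 cyclins, their kinases, kinase inhibitors and pocket proteins. It also held other E2F genes, their partner genes Tfdp1 and Tfdp2, and Lin9, Lin54, Fzr1, Wee1 and Cdc25a. Of its 27 tested genes 19 had a positive log2 difference, with a median of 0.03, and 0 passed the adjusted threshold in limma. Cdk2, the kinase partner of cyclins E and A, stood at 66.1, 75.9 and 70.7 FPKM in the drug group and at 62.9, 62.8 and 61.4 in the controls. The groups did not overlap, with a log2 difference of 0.18 ± 0.06 (SE) and an adjusted p of 0.746 in limma. Tfdp1, the DNA-binding partner of E2F proteins, stood at 191, 217 and 205 against 180, 188 and 174 FPKM, also without overlap, with 0.18 ± 0.07 (adjusted p = 0.762 in limma). These 2 of 27 genes had an unadjusted p under 0.05, as did 6.07% of all genes in either direction and 4.09% with a positive difference. The groups also did not overlap in Lin54, which was lower in the drug group. Over all genes 6.50% were higher and 5.69% lower without overlap. Lin9, a subunit of the DREAM complex, had 0.12 and E2f5, a repressor E2F, -0.22. The summed level of the late neutrophil markers, S100a8 and S100a9 above all, was also higher in the 3 drug libraries than in the controls. Its part in the values of Cdk2 and Tfdp1 was not tested.

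Several members could share reads with other genes. On GRCm38, 13 of 44 overlap another protein-coding gene, all but Cdt1 on the opposite strand, and 4 (Ccnb1, Ccnb2, Pcna and Tyms) have a pseudogene of the same name. The libraries were made with a stranded kit, but strand use in the counting is not stated, so these values are uncertain.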

How the data were processed

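The treatment label set the 2 groups of 3 libraries, and titles gave the numbers. Tools named in the submitters' processing notes are Cuffnorm 2.2.1, TopHat2 2.0.13, SAMtools 0.1.19 and Bowtie2 2.2.3, on build mm10. Their settings, annotation and strand handling: not given in the sources used here. FPKM values were deposited by the authors and hold no counts. Once relative depth was removed, 80.7% of 7705 values of genes under 0.3 FPKM were whole multiples of their gene's lowest within 0.02, so counts were not rebuilt. Depth was estimated from such genes with 1 GENCODE M21 transcript.

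The 10865 genes averaging 1 FPKM or more entered limma 3.58.1 (R 4.3.3) on log2(FPKM + 1), with eBayes, a trend, group as the factor and Benjamini-Hochberg adjustment over all genes at 0.05. The code was tested on simulated data. Members and lists were chosen with earlier results of these data known, and 1 further mitotic gene was matched by an older symbol. Values in every library are given for the 6 genes per set with the smallest p, the 3 highest per set, and Mki67, Top2a, Cdk1, Ccnb1, Mcm2, Mcm5, Pcna, Rrm2 and E2f1; other lists gave their 4 genes with the smallest p. Counting intervals within 0.5 of 0 was chosen after seeing the data. Gene coordinates are those of GENCODE M21. Python 3.11.15 ran matplotlib 3.10.9, numpy 2.4.6 and pandas 2.3.3. The alternatives comprised quantile normalization, median-of-ratios scaling, a minimum of 5 FPKM or none, no trend, a pseudocount of 0.1 or 0.5, a replicate block, and each library left out.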

Additional observations from a re-analysis of the deposited data

How the results depend on the processing

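In every alternative 0 of 44 members passed in limma. With all 6 libraries 0 genes passed under each other setting, and leaving out 1 library gave 0 to 6 genes (6 without CTLA4-Ig library 3), none of them a member, with 338 genes at an unadjusted p under 0.05 without CTLA4-Ig library 2 against 659. The members at an unadjusted p under 0.05 were 0 to 2 when 1 library was left out, the 2 being Ccne1 and Ttk without control library 3. The median log2 difference ran from -0.012 to 0.049 for mitotic and -0.0021 to 0.060 for replication genes on leaving out 1 library, so neither has a stable sign.

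Quantile normalization turned the sign of Top2a (-0.0022), Pcna (-0.011) and Mcm6 (-0.0037). Leaving out 1 library turned that of Mcm2 (-0.042 to 0.060), Top2a (-0.025 to 0.072), Pcna (-0.045 to 0.033), Mcm6 (-0.049 to 0.083), Cdk1 (-0.0077 to 0.076), Mcm5 (-0.0074 to 0.060), E2f1 (-0.00051 to 0.153) and Cdc6 (-0.00066 to 0.121); the cause was not tested. Libraries that share a number had correlations of deviations of -0.154, -0.0942 and -0.0235, against -0.0389 to 0.132 for unlike numbers. Shared numbers thus showed no closer match here. Such values, from 3 libraries per group centred on the group mean, cannot decide whether the numbers mark pairs. With a replicate block 0 members and 0 genes passed, 0 members had an unadjusted p under 0.05, and 619 genes did.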
